A study of Mus musculus with 11 samples.

Results

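Integrin and laminin chain genes were examined in primary myoblasts of wild-type and Bmal1-/- mice kept at normal or low oxygen. Integrin chains were the protein-coding genes named Itga or Itgb with a number or letter, and laminin chains were those named Lama, Lamb or Lamc with a number; the integrin-binding proteins Itgb1bp1, Itgb1bp2 and Itgb3bp and the related gene Itgbl1 were not counted among them. Of 22104 genes listed, 37 were such chains, 26 integrin and 11 laminin. A gene was tested when its normalized read count was at least 10 in at least 2 libraries, which 14729 genes reached, among them 29 chains (20 integrin and 9 laminin).

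Integrins are cell-surface receptors made of 1 alpha and 1 beta chain. The alpha chain largely sets the ligand: the chains α3, α6 and α7 bind laminin, α1, α2, α10 and α11 bind collagen, and α5, α8, αv and αIIb bind the short RGD motif of fibronectin, vitronectin and similar proteins. Laminins are heterotrimers of 1 alpha, 1 beta and 1 gamma chain that build the basement membrane around each muscle fibre. In muscle the α7β1 integrin and dystroglycan tie the fibre to laminin chains that include laminin α2, and loss of either Lama2 or Itga7 causes muscle disease in mice and people. Satellite cells lie between the fibre and this membrane.

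Donor mice were C57BL/6, about 8 weeks old, and either wild-type or Bmal1-/-; the kind of Bmal1 deletion is not given in the sources used here. Myoblasts came from the tibialis anterior muscle and were cultured with serum and basic fibroblast growth factor in Ham's F-10. They spent 6 h at 21% O2 (normoxia) or 1% O2 (hypoxia), and total RNA was then sequenced. Wild-type normoxia had 2 libraries, and wild-type hypoxia, knockout normoxia and knockout hypoxia had 3 each. Separate mice or cultures are not stated for the libraries of a group, so p-values measure the spread between libraries, which may be technical.

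Libraries held 18707697 to 33613328 reads assigned to genes, and every hypoxia library was deeper than every normoxia library. Arntl, the gene symbol of Bmal1, had normalized counts of 264.5 and 267 in wild-type normoxia, 325, 328 and 322 in wild-type hypoxia, 109, 117 and 98.8 in knockout normoxia and 128, 134 and 128 in knockout hypoxia. The 2 genotypes did not overlap, and reads of Arntl remained in the knockout. Among myoblast transcripts, every library carried Myod1 at 7793 to 9502, Pax7 at 1123 to 1595 and Des at 6927 to 8391 normalized counts. Of 10 listed markers of myoblast identity 8 were tested. The others, Chodl and Msc, were nearly absent, at no more than 1.56 and 3.11 in any library.

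Upstream sequences are shown for 5 integrin genes that differed between the genotypes at both oxygen levels, because BMAL1 with CLOCK binds the E-box CACGTG and the hypoxia-inducible factors bind a core of ACGTG or GCGTG. They are the RefSeq windows of the 250 bases before an annotated start on GRCm38.p6, read 5′ to 3′ on the gene's strand, in lower case with any ACGTG or GCGTG on either strand in capitals. Itga5, at chr15:103366792-103367041 (minus strand), Itgav, at chr2:83724147-83724396 (plus strand), and Itgb5, at chr16:33829415-33829664 (plus strand), fell in the knockout. Itgb6, at chr2:60722604-60722853 (minus strand), and Itga4, at chr2:79255176-79255425 (plus strand), rose.
Itga5: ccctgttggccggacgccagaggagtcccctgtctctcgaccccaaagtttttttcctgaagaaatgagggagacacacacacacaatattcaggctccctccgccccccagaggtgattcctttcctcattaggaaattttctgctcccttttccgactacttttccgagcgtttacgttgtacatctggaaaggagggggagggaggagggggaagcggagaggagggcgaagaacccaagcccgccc
Itgav: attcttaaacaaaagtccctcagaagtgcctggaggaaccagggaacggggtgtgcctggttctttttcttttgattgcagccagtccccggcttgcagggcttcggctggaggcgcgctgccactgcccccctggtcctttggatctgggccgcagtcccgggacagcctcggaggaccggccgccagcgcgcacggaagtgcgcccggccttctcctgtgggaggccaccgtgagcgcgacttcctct
Itgb5: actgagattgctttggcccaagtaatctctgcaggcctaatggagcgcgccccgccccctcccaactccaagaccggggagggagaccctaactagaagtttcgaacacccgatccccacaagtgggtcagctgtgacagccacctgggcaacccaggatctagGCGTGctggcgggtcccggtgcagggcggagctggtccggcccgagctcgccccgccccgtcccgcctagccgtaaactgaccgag
Itgb6: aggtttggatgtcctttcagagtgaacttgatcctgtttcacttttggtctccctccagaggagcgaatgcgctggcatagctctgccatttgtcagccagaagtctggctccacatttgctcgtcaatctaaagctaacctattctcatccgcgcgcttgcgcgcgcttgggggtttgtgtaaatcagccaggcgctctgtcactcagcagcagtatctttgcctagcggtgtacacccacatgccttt
Itga4: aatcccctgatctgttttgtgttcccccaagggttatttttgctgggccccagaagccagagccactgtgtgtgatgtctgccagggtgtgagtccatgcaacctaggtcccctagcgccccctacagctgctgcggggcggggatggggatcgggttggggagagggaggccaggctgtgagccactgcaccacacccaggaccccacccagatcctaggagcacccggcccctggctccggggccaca

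Windows were found for 21 of the 29 tested chains, 24 windows in all; Itga6, Itga7, Itgb3, Itgb4, Lama4, Lamc1 and Lamc3 were among those without one. CACGTG, which contains ACGTG on both strands, was in 0 of the 24 windows and in 6.02% of 32851 RefSeq windows of the same length. ACGTG or GCGTG was in 5 windows, those of Itga2, Itga9, Itgb5, Lamb1 and Lamb3, which is 20.8%, against 38.6% of all windows. Of the sequences printed, that of Itgb5 holds 1 match, a GCGTG that begins 86 bases before the start. These counts describe letters in a short window and say nothing of binding.

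Myoblasts expressed a few chains at a high level and many at a low one. Per kilobase of exon, the mean normalized count over the 11 libraries was highest among beta chains for Itgb1 (β1, the common partner of most alpha chains), at 4447. Among alpha chains 2 laminin receptors led, Itga6 at 1375 and Itga7 at 631 per kb. They were followed by Itgav at 364, Itga5 at 292 and Itga3 at 241 per kb. Itgb1 made up 87.7% to 90.8% of the summed per-kb level of the 7 beta chains in every library, and Itga6 42.1% to 50.5% of that of the 13 alpha chains.

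Laminin transcripts were dominated by 1 chain of each kind. Lamb1 averaged 674 per kb and took 71.7% to 80.1% of the beta chains, Lamc1 averaged 259.7 and took 91.6% to 98.1% of the gamma chains, and Lama2 averaged 151 and took 51.0% to 70.7% of the alpha chains. Lama5, an alpha chain of many basement membranes, was the next alpha chain at 95.02 per kb. Ordered with the longest coding transcript in place of all exons, neighbouring ranks changed places only for Itga1 and Itga2, for Itga8 and Itga2b, and for Lama5 and Lamb3.

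**Figure D1:**
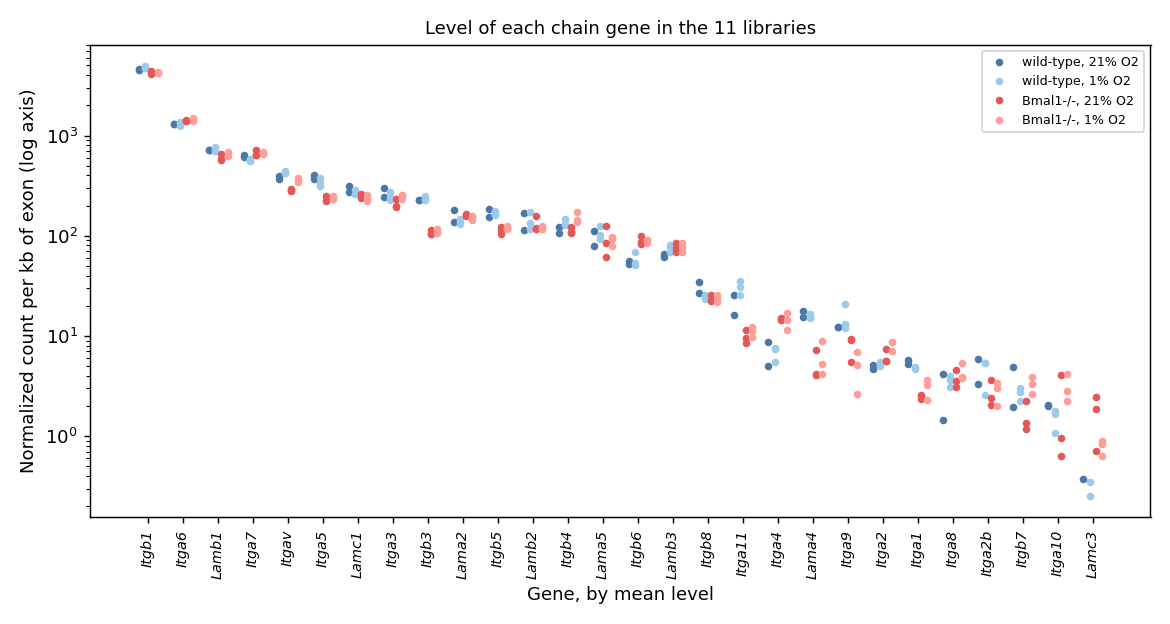
Normalized read count per kilobase of exon on a log axis for 28 of the 29 tested chains, ordered by mean, with each point 1 library and the 4 groups in colour (zeros of Lamc3 are not drawn). Itgb1 lies highest at a mean of 4447 per kb and Lamc3 lowest at 0.759.

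The 8 chains under the filter were the leukocyte chains Itgad, Itgae, Itgal, Itgam, Itgax and Itgb2 and the laminin chains Lama1 and Lama3. Their highest normalized counts in any library were 3.43, 6.79, 5.72, 4.28, 1.56, 3.89, 3.72 and 5.35, in that order. Itgb2 is the beta chain of the leukocyte integrins, and the leukocyte markers, among them Cd14, Cd68, Csf1r and Lyz2, together summed to 38.5 to 73.9 normalized counts per library. Lamc3 passed only through 2 knockout normoxia libraries, so its presence among the tested chains was tied to that group.

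The genotype separated the chains most. In normoxia 9 of 29 chains (31.0%) fell in Bmal1-/- myoblasts, against 5.66% of all 14729 tested genes, and 2 rose (6.90%), against 3.44% of all genes, by limma with Benjamini-Hochberg adjustment over all tested genes and a threshold of 0.05. In hypoxia 9 chains fell (31.0%), against 5.61% of all genes, and 5 rose (17.2%), against 3.33%. The chains that fell at both oxygen levels were Itga1, Itga5, Itga11, Itgav, Itgb3, Itgb5 and Lama4, and those that rose at both were Itga4 and Itgb6. The wild-type and knockout libraries did not overlap for any chain in any genotype comparison where it passed. That separation comes from the values that gave the calls, so it adds no support to them. It is given without a share over all tested genes. Chains that did not pass could be apart too, as Itga9, Itgb8 and Lamc1 were in normoxia. The median log2 difference between knockout and wild-type was -0.22 over the 29 chains in normoxia and -0.16 in hypoxia, against 0.00491 and 0.00447 over all tested genes. The log2 scale is that of the normalized count plus 1, which understates differences of low genes.

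Markers of other cell types and states differed between the genotypes along with these chains. Of 9 tested markers of fibro-adipogenic progenitors and fibroblasts, 8 fell in the knockout at each oxygen level. Of all tested genes, 5.66% fell in normoxia and 5.61% in hypoxia. The summed level of these fibroblast markers was 19465 to 21663 in wild-type libraries and 14260 to 17250 in knockout libraries. Most of that sum was Col3a1, at 11541 to 15948. Pdgfra, the receptor that defines these progenitors, fell by 1.38 on the log2 scale in normoxia (SE 0.08, adjusted p = 1.25e-07) and by 1.29 in hypoxia (SE 0.07, adjusted p = 5.62e-08). Of 8 tested markers of pericytes and smooth muscle, 4 fell at each oxygen level, against the same 5.66% and 5.61%, and 0 rose. Their sum was 33825 to 39136 in wild-type and 28318 to 31986 in knockout libraries. Acta2 made up most of it, at 23912 to 32293. The pericyte markers Abcc9 and Rgs5 did not fall. In normoxia Abcc9 was at 50.3 and 69.6 in wild-type and at 76.95, 89.95 and 91.2 in knockout libraries. Rgs5 was there at 405 and 484 in wild-type and at 580, 498.5 and 496 in knockout libraries. In hypoxia the ranges of both overlapped between the genotypes. Muscle differentiation genes moved the other way: 8 of 12 rose in normoxia and 9 of 12 in hypoxia, against 3.44% and 3.33% of all tested genes. Embryonic myosin Myh3 (0.64 and 0.71) was among them. The sum of the list was 38118 to 53726 in wild-type and 64702 to 77001 in knockout libraries. In bulk RNA, fewer cells of a type and less RNA per cell cannot be told apart, and the part of these marker differences in the results for the chains was not tested.

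Myoblast identity, endothelial, leukocyte, Schwann cell and adipocyte markers complete this check. Among 8 tested identity markers Myf5 rose at both oxygen levels (0.59 and 0.51) and Sdc4 fell in hypoxia, by 0.21. Endothelial markers summed to 31.0 to 75.4 in every library, and Cdh5, Cldn5, Emcn and Erg were at 0 in at least 1 library each. Of 3 tested Schwann cell markers Erbb3 rose at both oxygen levels (0.34 and 0.40), with list sums of 393 to 477 in wild-type and 507 to 604.6 in knockout libraries, and Sox10 and Foxd3 reached at most 4.10 and 1.82. The 1 tested adipocyte marker, Pparg, fell at both oxygen levels (-0.79 and -0.65), with list sums of 90.2 to 101 and 44.5 to 63.5, and Adipoq reached at most 2.05.

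**Figure D2:**
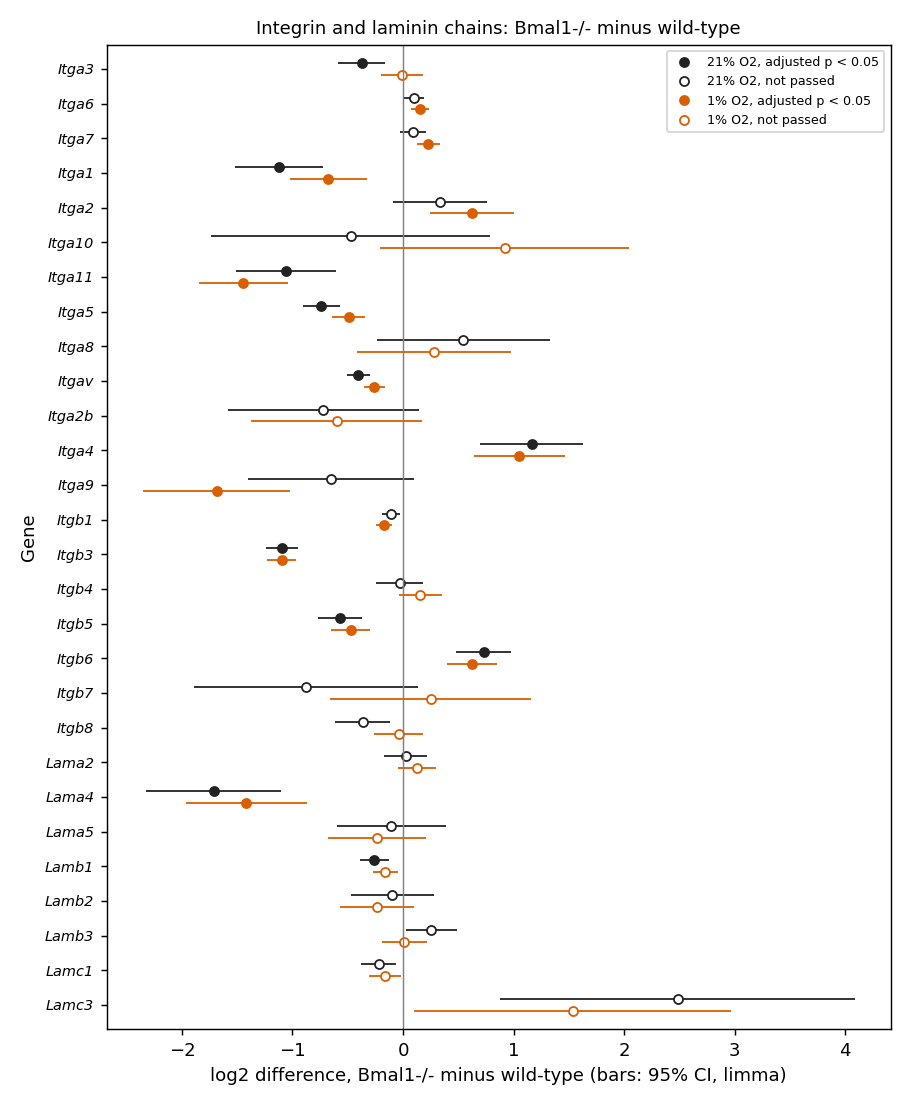
Log2 difference between Bmal1-/- and wild-type myoblasts for 28 of the 29 tested chains at 21% O2 and 1% O2, with 95% confidence intervals from limma; filled points passed an adjusted p of 0.05. Lama4, Itga11, Itga1 and Itgb3 lie furthest left among the chains that passed at both oxygen levels, and Itga4 and Itgb6 lie to the right.

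Of the laminin-binding alpha chains, Itga6 and Itga7 were high in all groups and differed little between the genotypes, whereas Itga3 was lower in level and fell in normoxia. Itga6 (α6, partner of β1 and β4) had normalized counts of 11774 and 11862 in wild-type normoxia, 11274, 11986 and 12194 in wild-type hypoxia, 12512, 12922 and 12596 in knockout normoxia and 12653, 13427 and 13279 in knockout hypoxia. Itga6 was higher in all knockout than in all wild-type libraries at each oxygen level, but by a small step. It rose by 0.15 (SE 0.04, adjusted p = 0.0232) in hypoxia, and its difference in normoxia was 0.10 (95% CI 0.01 to 0.19, adjusted p = 0.169). The hypoxia call was lost without wild-type hypoxia library 1 (adjusted p = 0.092), without knockout hypoxia library 2 (0.108) or 3 (0.0842), or without a variance trend (0.107).

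Itga7, the major alpha chain of differentiated muscle, had normalized counts of 4882 and 5197 in wild-type normoxia, 4739, 4499 and 4549 in wild-type hypoxia, 5188, 5149.6 and 5772 in knockout normoxia and 5239, 5561 and 5373 in knockout hypoxia. Itga7 rose in the knockout by 0.23 (SE 0.05, adjusted p = 0.00821) in hypoxia, where the genotypes were apart, a call lost without a variance trend (adjusted p = 0.0527). Its normoxia difference was 0.09 (95% CI -0.03 to 0.21, adjusted p = 0.348), with overlapping groups. The ratio of Itga6 to Itga7 per kb was 1.96 to 2.40 in all libraries, and its ranges overlapped between the genotypes. Itga3 (α3), whose counts were 1399.5 and 1696 in wild-type normoxia, 1382, 1305 and 1570.2 in wild-type hypoxia, 1114, 1138 and 1321 in knockout normoxia and 1455, 1320.5 and 1443 in knockout hypoxia, fell by 0.38 (SE 0.10, adjusted p = 0.0297) in normoxia. In hypoxia the Itga3 groups overlapped, with a difference of -0.01 (95% CI -0.20 to 0.18, adjusted p = 0.975). The normoxia call of Itga3 did not hold without wild-type normoxia library 2 (adjusted p = 0.307), without knockout normoxia library 1 (0.0981) or 2 (0.0919), or without a variance trend (0.102).

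Among the collagen-binding alpha chains, the fibrillar collagen receptor Itga11 and the α1 chain were lower in the knockout and the α2 chain was higher. Itga11 (ENSMUSG00000032243, chr9:62677826-62783982, plus strand, GRCm38 as for all genes) had normalized counts of 83.5 and 131 in wild-type normoxia, 181, 132 and 158 in wild-type hypoxia, 58.3, 48.7 and 43.4 in knockout normoxia and 57.2, 62.7 and 50.2 in knockout hypoxia. All 6 knockout libraries lay below all 5 wild-type libraries. Itga11 fell by 1.06 (SE 0.21, adjusted p = 0.00573) in normoxia and by 1.45 (SE 0.19, adjusted p = 0.000178) in hypoxia. The normoxia call was lost without wild-type normoxia library 2, when the log2 difference was -0.74 (adjusted p = 0.106).

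Itga1 (ENSMUSG00000042284, chr13:114953096-115101964, minus strand), the chain of the α1β1 collagen and laminin receptor, had counts of 97.4 and 106 in wild-type normoxia, 87.7, 89.3 and 91.7 in wild-type hypoxia, 47.2, 43.7 and 47.8 in knockout normoxia and 66.9, 42.7 and 60.5 in knockout hypoxia. Here too every knockout library was below every wild-type library. Itga1 fell by 1.12 (SE 0.18, adjusted p = 0.00152) in normoxia and by 0.67 (SE 0.16, adjusted p = 0.0187) in hypoxia. The hypoxia call was lost without any 1 of the wild-type hypoxia libraries (adjusted p = 0.0503, 0.0592 and 0.0619 for libraries 1, 2 and 3) or without knockout hypoxia library 2 (0.079). Pelo lies inside Itga1 on the same strand and shares 0 exonic bases with it; Pelo did not pass in either genotype comparison (-0.16 and 0.11).

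Itga2 (α2) was a low gene, at 36.4 and 33.1 in wild-type normoxia, 36.2, 39.4 and 35.8 in wild-type hypoxia, 53.4, 40.0 and 40.2 in knockout normoxia and 50.4, 61.8 and 61.5 in knockout hypoxia. It was higher in the knockout libraries at each oxygen level, and rose by 0.62 (SE 0.18, adjusted p = 0.0414) in hypoxia. That call was lost in 8 of 17 alternatives: without wild-type normoxia library 1 (adjusted p = 0.0501), any 1 of the wild-type hypoxia libraries (0.106, 0.0808 and 0.114), knockout hypoxia library 2 (0.145) or 3 (0.131), with no filter on low values (0.0894), and with DESeq2 on the recovered reads (0.128). In normoxia the difference was 0.34 (95% CI -0.09 to 0.76, adjusted p = 0.331). Itga10 ranged over 3.26 to 21.5 and passed in no comparison.

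Of the RGD-binding alpha chains, Itga5 and Itgav fell at both oxygen levels. Itga5 (ENSMUSG00000000555, chr15:103344286-103366763, minus strand), the alpha chain of the fibronectin receptor α5β1, had normalized counts of 1808 and 2006 in wild-type normoxia, 1534, 1647 and 1838 in wild-type hypoxia, 1087, 1119 and 1221 in knockout normoxia and 1156, 1224 and 1184 in knockout hypoxia. The highest of the 6 knockout libraries was below the lowest of the 5 wild-type libraries. Itga5 fell by 0.74 (SE 0.08, adjusted p = 3.24e-05) in normoxia and by 0.49 (SE 0.07, adjusted p = 0.000394) in hypoxia, and passed in all 17 alternatives at both oxygen levels.

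Itgav (ENSMUSG00000027087, chr2:83724397-83806916, plus strand), the αv chain that pairs with β1, β3, β5, β6 and β8, had counts of 3940.4 and 4231 in wild-type normoxia, 4588, 4737 and 4587 in wild-type hypoxia, 3105, 3118 and 3030.5 in knockout normoxia and 3719, 3834 and 4069 in knockout hypoxia. Within each oxygen level the genotypes did not overlap, but knockout hypoxia overlapped wild-type normoxia. Itgav fell by 0.40 (SE 0.05, adjusted p = 0.000112) in normoxia and by 0.26 (SE 0.04, adjusted p = 0.00148) in hypoxia, again in all 17 alternatives. The remaining members of this class were low. Itga8 (α8) ranged over 10.7 to 40.0 and Itga2b (αIIb, the platelet chain) over 10.9 to 32.1 normalized counts, and neither passed in any comparison.

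The α4 and α9 chains, which bind VCAM1, fibronectin and other ligands and are related in sequence, did not move together: Itga4 rose at both oxygen levels and Itga9 fell in hypoxia. Itga4 (ENSMUSG00000027009, chr2:79255426-79333123, plus strand) had normalized counts of 69.6 and 121 in wild-type normoxia, 77.2, 103 and 105 in wild-type hypoxia, 208, 209 and 203 in knockout normoxia and 199.8, 161 and 235 in knockout hypoxia. All knockout libraries exceeded all wild-type libraries, the closest being knockout hypoxia library 2 at 161 and wild-type normoxia library 2 at 121. Itga4 rose by 1.16 (SE 0.21, adjusted p = 0.00366) in normoxia, or 2.24-fold, and by 1.05 (SE 0.19, adjusted p = 0.00281) in hypoxia, or 2.07-fold. The normoxia call was lost without wild-type normoxia library 1, the lowest library (log2 difference 0.77, adjusted p = 0.0567).

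Itga9 was at 94.2 and 94.8 in wild-type normoxia, 102, 159 and 93.3 in wild-type hypoxia, 69.5, 72.5 and 42.3 in knockout normoxia and 20.4, 39.0 and 53.3 in knockout hypoxia. At both oxygen levels the knockout libraries were lower than the wild-type libraries, and the knockout groups overlapped each other. Itga9 fell by 1.69 (SE 0.31, adjusted p = 0.003) in hypoxia, in all 17 alternatives, while the normoxia difference was -0.65 (95% CI -1.40 to 0.10, adjusted p = 0.283). In the level per kb, Itga5 exceeded Itga4 by 45.5 to 73.6 times in wild-type libraries and by 14.3 to 21.6 times in knockout libraries.

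Among the beta chains, Itgb3 showed the smallest adjusted p of all 29 chains. Itgb3 (ENSMUSG00000020689, chr11:104608000-104670476, plus strand), the β3 chain of the vitronectin receptor αvβ3, had normalized counts of 1350.2 and 1355 in wild-type normoxia, 1347, 1379 and 1461 in wild-type hypoxia, 617, 608 and 679.5 in knockout normoxia and 646, 623 and 685 in knockout hypoxia. The genotypes were far apart, the highest knockout library being at 684.6 and the lowest wild-type library at 1347. Itgb3 fell by 1.09 (SE 0.07, adjusted p = 2.72e-07) in normoxia, or 2.13-fold, and by 1.10 (SE 0.06, adjusted p = 6.00e-08) in hypoxia, or 2.14-fold. Both calls held in all 17 alternatives, with log2 differences of -1.14 to -1.06 at each oxygen level.

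Itgb5 (ENSMUSG00000022817, chr16:33829665-33949338, plus strand), the β5 chain that pairs only with αv, had counts of 548 and 658 in wild-type normoxia, 633, 573 and 588 in wild-type hypoxia, 405, 436 and 372 in knockout normoxia and 447, 427 and 416 in knockout hypoxia. Every knockout library was below every wild-type library. Itgb5 fell by 0.57 (SE 0.09, adjusted p = 0.0014) in normoxia and by 0.47 (SE 0.08, adjusted p = 0.00198) in hypoxia, in all 17 alternatives.

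Itgb6 (ENSMUSG00000026971, chr2:60598292-60722643, minus strand), the β6 chain, moved the other way. In epithelia αvβ6 is known for activating latent TGF-beta. Its counts were 373 and 397 in wild-type normoxia, 491, 379.5 and 366 in wild-type hypoxia, 619, 592 and 711 in knockout normoxia and 642, 650.3 and 599.6 in knockout hypoxia. Every knockout library was above every wild-type library, the highest wild-type value being the 491 of hypoxia library 1. Itgb6 rose by 0.73 (SE 0.12, adjusted p = 0.0012) in normoxia, or 1.66-fold, and by 0.62 (SE 0.10, adjusted p = 0.00136) in hypoxia, or 1.54-fold, in all 17 alternatives.

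**Figure D3:**
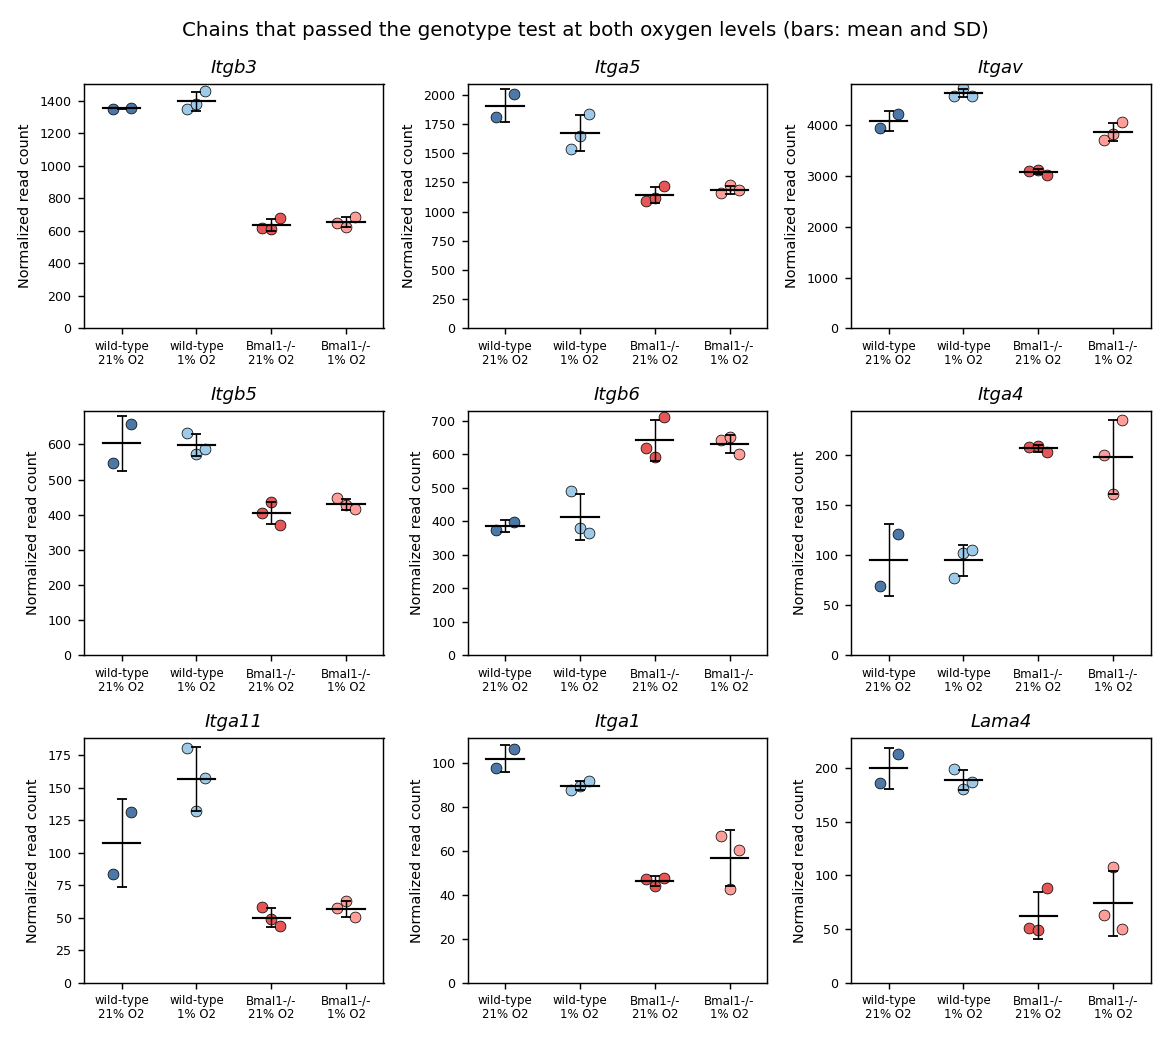
Normalized read count of the 9 chains that passed the genotype test at both oxygen levels, on axes from 0, with each point 1 library and bars for the mean and SD (n = 2 in wild-type normoxia, 3 in the other groups). Knockout libraries lie below wild-type libraries at the same oxygen level for 7 chains, such as Itgb3 at 608 to 684.6 against 1347 to 1461, and above them for Itgb6 and Itga4.

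The mix of αv partners other than β1 differed between the genotypes. Itgb1, which also pairs with αv, was left out of the sum below. It made up 87.7% to 90.8% of the summed per-kb level of the 7 beta chains. Of the summed per-kb level of Itgb3, Itgb5, Itgb6 and Itgb8, Itgb3 took 45.5% to 50.7% in wild-type and 31.0% to 33.8% in knockout libraries. Itgb6 took 10.5% to 13.8% in wild-type and 24.6% to 29.0% in knockout libraries, and Itgb5 took 33.4% to 36.7% and 30.4% to 37.0%. The shares of Itgb3 and Itgb6 did not overlap between the genotypes and those of Itgb5 did. Itgb3 exceeded Itgb6 per kb by 3.31 to 4.81 times in wild-type libraries and by 1.15 to 1.38 times in knockout libraries, and the 4 chains summed to 462 to 504.9 per kb in wild-type and to 328 to 348 in knockout libraries. These shares are transcript levels and were not tested beyond the tests of the single genes above.

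**Figure D4:**
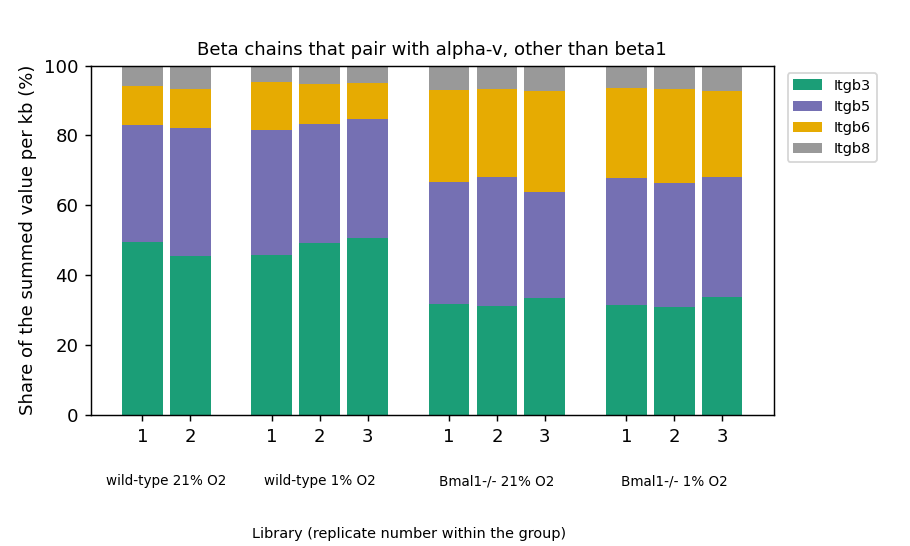
Share of Itgb3, Itgb5, Itgb6 and Itgb8 in their summed level per kilobase in each of the 11 libraries, grouped by genotype and oxygen. Itgb1, which also pairs with αv, is left out of the sum. Itgb3 takes 45.5% to 50.7% in wild-type and 31.0% to 33.8% in knockout libraries, and Itgb6 10.5% to 13.8% and 24.6% to 29.0%.

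The main beta chain differed little between the genotypes. Itgb1 had counts of 18903 and 18469.7 in wild-type normoxia, 19035, 20106 and 19285 in wild-type hypoxia, 17765, 17487 and 16759 in knockout normoxia and 17211, 17559 and 17063 in knockout hypoxia. Knockout libraries were lower at each oxygen level. Itgb1 fell by 0.17 (SE 0.03, adjusted p = 0.00604) in hypoxia, a call lost without a variance trend (adjusted p = 0.0538), and its normoxia difference was -0.11 (95% CI -0.19 to -0.02, adjusted p = 0.107).

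Itgb4, the β4 chain that joins α6 in the hemidesmosomes of epithelia, did not pass between the genotypes, with differences of -0.03 (95% CI -0.24 to 0.18, adjusted p = 0.895) in normoxia and 0.16 (95% CI -0.04 to 0.35, adjusted p = 0.356) in hypoxia. Itgb8 (β8, an αv partner) ranged over 243 to 379, and its normoxia difference was -0.37 (95% CI -0.61 to -0.12, adjusted p = 0.0634). Without wild-type normoxia library 1 the Itgb8 difference was -0.55. That fit leaves 1 library in wild-type normoxia, the one with the highest Itgb8 count, 379. Itgb7, a leukocyte chain, ranged over 3.26 to 13.7 and passed in no comparison.

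Of the 9 tested laminin chains, 2 (22.2%) fell in the knockout in normoxia, against 5.66% of all tested genes. In hypoxia 1 (11.1%) fell, against 5.61%, and no other laminin chain passed at either oxygen level. Lama4 (ENSMUSG00000019846, chr10:38965515-39110188, plus strand), the α4 chain known from the walls of blood vessels, was at 186 and 214 in wild-type normoxia, 199, 181 and 187 in wild-type hypoxia, 50.9, 48.7 and 87.9 in knockout normoxia and 63.0, 108 and 50.2 in knockout hypoxia. Every knockout library was below every wild-type library. Lama4 fell by 1.71 (SE 0.28, adjusted p = 0.00173) in normoxia, or 3.27-fold, and by 1.42 (SE 0.25, adjusted p = 0.0025) in hypoxia, or 2.67-fold, in all 17 alternatives. Lama2 per kb exceeded Lama4 by 7.92 to 10.2 times in wild-type and by 16.9 to 39.1 times in knockout libraries. Of the 8 endothelial markers the highest values in any library were 30.39 for Vwf, 28.76 for Tek and 24.99 for Pecam1, and the defining marker Cdh5 reached at most 9.08. Pdgfrb, a receptor of the pericytes of vessel walls, fell by 1.40 in normoxia and 1.21 in hypoxia, whereas the pericyte markers Abcc9 and Rgs5 did not fall. The part of these markers in the Lama4 result was not tested.

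Lamb1, the main beta chain, had counts of 7187 and 7095 in wild-type normoxia, 7014, 7200.0 and 7569.6 in wild-type hypoxia, 5621, 5830.5 and 6470.3 in knockout normoxia and 6143, 6584 and 6787 in knockout hypoxia. The genotypes were apart at each oxygen level by a small margin. Lamb1 fell by 0.26 (SE 0.06, adjusted p = 0.0152) in normoxia, and its hypoxia difference was -0.16 (95% CI -0.28 to -0.04, adjusted p = 0.0916). The normoxia call was lost without wild-type normoxia library 1 (adjusted p = 0.0955) or 2 (0.0816), without knockout normoxia library 1 (0.0587) or 2 (0.0546), or without a variance trend (0.0777). In hypoxia Lamb1 passed when knockout normoxia library 3 was left out (adjusted p = 0.0408). That library has no part in the hypoxia means, and the difference stayed at -0.16.

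Lama2, the muscle laminin chain, was at 2238 and 2957 in wild-type normoxia, 2137, 2256 and 2376 in wild-type hypoxia, 2691, 2552 and 2613 in knockout normoxia and 2331, 2475 and 2586 in knockout hypoxia. The groups overlapped, and Lama2 differed between the genotypes by 0.03 (95% CI -0.17 to 0.22, adjusted p = 0.903) in normoxia and 0.13 (95% CI -0.05 to 0.30, adjusted p = 0.424) in hypoxia. Lamc1, the common gamma chain, was at 2244 and 2568 in wild-type normoxia, 2148, 2161 and 2371 in wild-type hypoxia, 2071, 1966 and 2142 in knockout normoxia and 1847, 1986 and 2129 in knockout hypoxia. It was lower in every knockout library at each oxygen level, and the differences of -0.22 (95% CI -0.38 to -0.06, adjusted p = 0.0819) and -0.16 (95% CI -0.31 to -0.02, adjusted p = 0.163) did not pass.

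Lama5, Lamb2, Lamb3 and Lamc3 did not pass in any comparison. Lama5 ranged over 692 to 1435, Lamb2 (the β2 chain of the neuromuscular junction) over 697 to 1059.5 and Lamb3 over 406 to 562 normalized counts. Lamc3 ranged over 0 to 14.9 and gave a normoxia difference of 2.48 (95% CI 0.88 to 4.09, adjusted p = 0.0547), which passed with a pseudocount of 5 (adjusted p = 0.0485), with no filter on low values (0.041), and without knockout normoxia library 3 (0.0351) or wild-type hypoxia library 1 (0.0379). Lamc3 rests on 47 reads in all, and it was tested only because 2 knockout normoxia libraries, at 14.9 and 11.2, reached the filter. Its normoxia difference is tied to that choice, so it gives no support for a genotype effect in any of these settings.

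The proteins that integrins and laminins bind were followed in lists of pathway partners. Of 18 tested integrin ligands outside the laminins and fibrillar collagens, 10 (55.6%) fell in the knockout in normoxia and 11 (61.1%) in hypoxia, against 5.66% and 5.61% of all tested genes, and the others did not pass. Fn1, fibronectin and the ligand of α5β1, fell by 0.79 in normoxia (SE 0.07, adjusted p = 6.75e-06) and by 0.55 in hypoxia (SE 0.06, adjusted p = 6.40e-05). Tgfbi fell by 1.31 and 1.07 and fibrillin-1, Fbn1, by 0.74 in normoxia, and osteopontin, Spp1, an αv ligand, fell by 0.43 in hypoxia. The median log2 difference of the list was -0.35 at each oxygen level.

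Of 12 tested basement membrane partners, 4 fell and 2 rose in normoxia, against 5.66% and 3.44% of all tested genes, and 3 fell and 2 rose in hypoxia, against 5.61% and 3.33%. The nidogen Nid1, which links laminin to collagen IV, fell by 0.78 and 0.62, Col15a1 by 1.34 and 1.15, and Smoc2 by 1.08 and 1.23. The list medians were -0.12 and 0.04. Among 13 tested genes of dystroglycan, the dystrophin complex and Bcam, Sgcd (δ-sarcoglycan) fell at both oxygen levels, by 0.95 and 0.82, and Sntb1 (β1-syntrophin) rose in hypoxia by 0.81. Thus 1 of 13 (7.69%) fell at each oxygen level, close to the 5.66% and 5.61% of all tested genes. In normoxia 0 rose, against 3.44%, and in hypoxia 1 (7.69%) rose, against 3.33%.

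On the cytoplasmic side of integrins, 7 of 27 tested genes (25.9%) fell in the knockout in normoxia and 4 (14.8%) in hypoxia, against 5.66% and 5.61% of all tested genes, and the others did not pass. The focal adhesion protein Tns2 fell by 0.73 and 0.49, α-actinin-1, Actn1, by 0.31 in normoxia, and integrin-linked kinase, Ilk, by 0.20 in hypoxia. Of the 7 tested membrane partners, the tetraspanins with Cd47 and Cd44, 0 passed between the genotypes at either oxygen level with limma, edgeR or DESeq2. At an unadjusted p under 0.05, 2 were lower at each oxygen level with limma, against 12.8% of all tested genes in normoxia and 11.4% in hypoxia. The lists' medians were -0.12 and -0.06 for the cytoplasmic and -0.06 and -0.07 for the membrane partners.

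Low oxygen for 6 h moved few chains. In wild-type myoblasts 0 of 29 chains rose, against 1.70% of all tested genes, and 0 fell, against 0.468%. At an unadjusted p under 0.05, 7 of 29 chains (24.1%) passed there with limma, 4 higher and 3 lower, against 13.6% of all tested genes. On the recovered reads 8 chains (27.6%) did so with edgeR and 8 with DESeq2, against 13.9% and 10.5% of all genes. After adjustment edgeR called 0 chains, and DESeq2 called 1 risen, against 1.99% of all genes. In knockout myoblasts 2 chains (6.90%) rose, against 3.15% of all genes, and 0 fell, against 0.937%. At an unadjusted p under 0.05 with limma, 8 of 29 chains (27.6%) passed there, 6 higher and 2 lower. The 2 lower ones were 6.90%, against 7.48% of all genes. The higher ones are given without a share over all genes. After adjustment edgeR called 0 chains fallen and DESeq2 1, against 1.24% of all genes. The median log2 difference of the chains was 0.02 in wild-type and 0.05 in knockout cells. Every hypoxia library was deeper than every normoxia library. In the knockout, 3 of 9 fibroblast markers rose under hypoxia, namely Cd34 (0.50), Col1a1 (0.57) and Col3a1 (0.15), with list sums of 14260 to 15156 in normoxia and 16292 to 17250 in hypoxia. The smooth muscle gene Acta2 fell under hypoxia in both genotypes (-0.19 in wild-type and -0.18 in knockout), and Tagln fell in the knockout (-0.28). The part of depth and of these markers in the hypoxia results was not tested.

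Itgav rose in hypoxia in the knockout by 0.33 (SE 0.04, adjusted p = 0.000558), in all 17 alternatives. All 3 knockout hypoxia libraries, at 3719, 3834 and 4069, lay above the knockout normoxia libraries, at 3105, 3118 and 3030.5. In wild-type cells the groups were apart in the same direction, with a difference of 0.18 (95% CI 0.08 to 0.29, adjusted p = 0.0806), which passed with DESeq2 on the recovered reads (adjusted p = 0.0312).

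Itgb4 had counts of 753 and 865 in wild-type normoxia, 925, 895 and 1019.9 in wild-type hypoxia, 771, 752 and 852 in knockout normoxia and 961, 1007 and 1208 in knockout hypoxia. The hypoxia libraries lay above the normoxia libraries within each genotype. It rose by 0.41 (SE 0.09, adjusted p = 0.0176) in the knockout, and its wild-type difference was 0.23 (95% CI 0.01 to 0.44, adjusted p = 0.33). The knockout call was lost without knockout normoxia library 1 (adjusted p = 0.0706) or 2 (0.0802), without knockout hypoxia library 3 (0.0724), or without a variance trend (0.0839).

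Among the chains that did not pass under hypoxia, Itga11 was higher in all wild-type hypoxia libraries, with a difference of 0.57 (95% CI 0.12 to 1.02, adjusted p = 0.238), and Itgb8 was lower, with -0.32 (95% CI -0.56 to -0.07, adjusted p = 0.224). Itga10, with 121 reads in all, gave a knockout difference of 0.99 (95% CI -0.14 to 2.12, adjusted p = 0.35), with overlapping groups. It passed without knockout normoxia library 2 (adjusted p = 0.0479). That library was the highest of its group, at 21.2 against 4.96 and 3.26, so leaving it out favours a rise and gives no support for one. Without wild-type normoxia library 1, which leaves 1 library in that group, the Lama2 difference in wild-type was -0.39.

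Partners of the chains passed under hypoxia in a few cases. Fermt2, kindlin-2, which binds beta chain tails and activates integrins, rose in both genotypes, by 0.50 in wild-type (SE 0.05, adjusted p = 0.000107) and by 0.47 in the knockout (SE 0.05, adjusted p = 5.23e-05). Plec, plectin, which binds the β4 tail, rose in the knockout by 0.33, and the collagen IV chain Col4a2 by 0.25. Cd44 fell in both genotypes, by 0.25 in each, Vcam1, a ligand of α4 and α9 chains, fell in the knockout by 0.25, and Sntb1 fell in wild-type by 0.51. Of the 27 cytoplasmic partners 1 (3.70%) rose in wild-type, against 1.70% of all tested genes, and 2 (7.41%) in the knockout, against 3.15%. Of 7 membrane partners 1 (14.3%) fell in each genotype, and of 13 dystroglycan and dystrophin complex genes 1 (7.69%) fell in wild-type. In the knockout 1 of 18 ligands (5.56%) fell and 1 of 12 basement membrane partners (8.33%) rose. Of all tested genes, 0.468% fell in wild-type and 0.937% in the knockout.

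**Figure D5:**
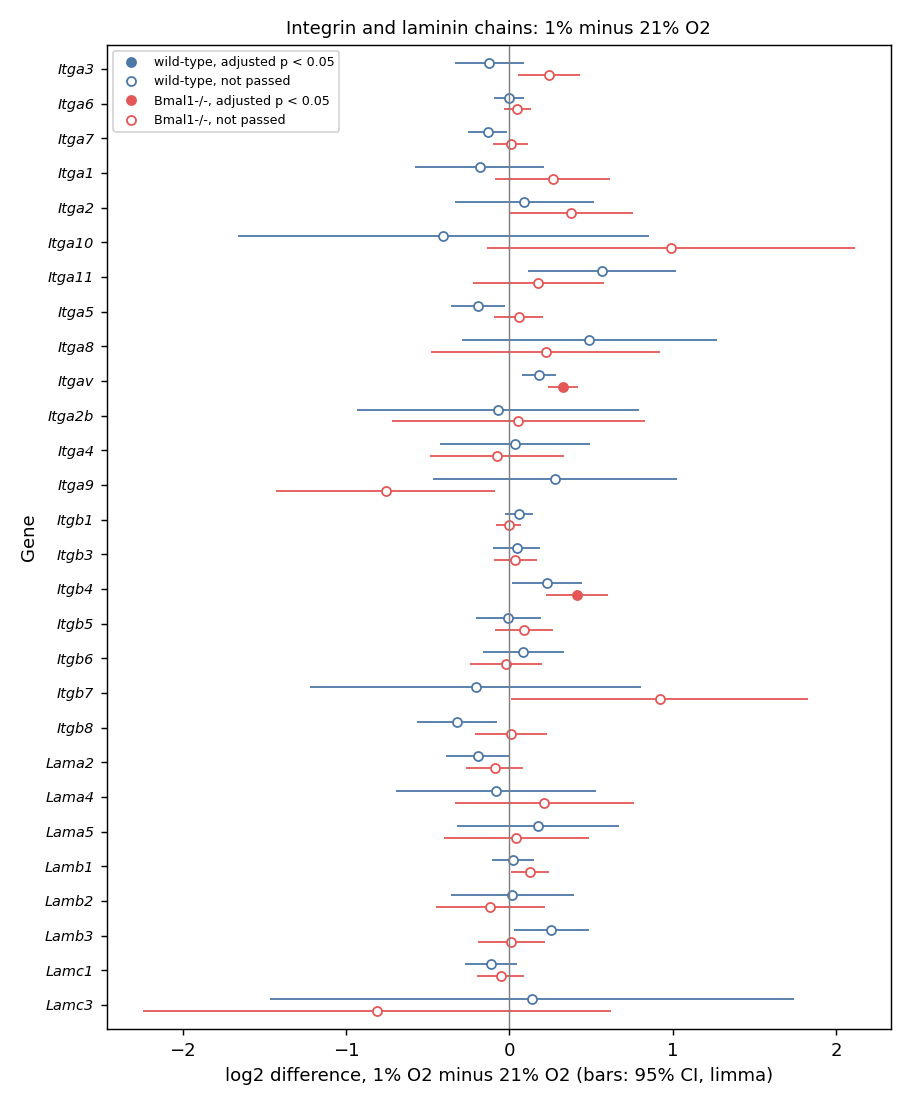
Log2 difference between 1% and 21% O2 for 28 of the 29 tested chains in wild-type and Bmal1-/- myoblasts, with 95% confidence intervals from limma; filled points passed an adjusted p of 0.05. The 2 filled points are Itgav at 0.33 and Itgb4 at 0.41 in the knockout.

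For a response to hypoxia that differed by genotype, limma called 0 chains in either direction. Of all tested genes, 0.00679% were called with a more positive hypoxia difference in the knockout than in wild-type, and 0% with a more negative one. At an unadjusted p under 0.05, 5 of 29 chains (17.2%) passed with limma, against 5.32% of all tested genes. With edgeR on the recovered reads 6 passed (20.7%), against 5.28%, and with DESeq2 5, against 3.55%, and after adjustment 0 passed with either. The 5 with limma became 1 without knockout normoxia library 1, 2 without wild-type normoxia library 2, knockout normoxia library 2 or a variance trend, 3 without wild-type hypoxia library 1, and 4 to 7 without each other library. Among the 5 with limma were Itga3 (0.36), Itga5 (0.25), Itga9 (-1.04) and Itgav (0.14), each with an adjusted p of 0.905 or more. For Itgb3, the interval of the difference was narrow, at -0.01 (95% CI -0.20 to 0.19, adjusted p = 0.995), and for Itgb6 it was -0.11 (95% CI -0.44 to 0.23, adjusted p = 0.949). The calls of Itgav and Itgb4 under hypoxia in the knockout alone are therefore not shown to differ from the wild-type response. The knockout response minus the wild-type response was 0.14 (95% CI 0.003 to 0.28, adjusted p = 0.917) for Itgav. For Itgb4 it was 0.19 (95% CI -0.10 to 0.47, adjusted p = 0.917).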

How the data were processed

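Total RNA of myoblasts was made into 11 libraries with a stranded kit, per the labels' protocols. Per the submitters' processing notes, bcl2fastq, STAR, Picard, HTSeq, RSEM and DESeq2 were used with mm10; versions, the tool behind the table and the strand setting are not given in the sources used here. The deposited values are a normalized signal, in which the authors divided each library's read counts by 1 size factor. With the size factors multiplied back, 100% of values came out whole to within 0.01 read, and 0 columns were left unused. Values were log2-transformed with a pseudocount of 1, and the test took genes that reached 10 in 2 or more libraries. A model with 4 groups was fitted to 14729 genes with limma 3.58.1 in R 4.3.3 and a variance trend (residual degrees of freedom 7, prior 6.35), and p-values were adjusted by Benjamini-Hochberg over all tested genes in each of 5 comparisons. The fit was tested on simulated data.

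Alternatives were edgeR 4.0.16 and DESeq2 1.42.0 on the recovered reads, TMM scaling, a pseudocount of 5, no filter, no variance trend and leaving out each library. On the recovered reads edgeR called 318 and 571 genes under hypoxia in wild-type and knockout, and 1244 and 1429 between genotypes in normoxia and hypoxia. Within groups, Pearson's r between libraries was 0.985 to 0.991 across genes, and chi-square of their reads divided by the degrees of freedom came to 4.59 to 22.65, so no library repeated another of its group. The labels give no link between libraries of different groups, so no pairing was used, and a library's number within its group only names it.

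Gene names, positions and exon lengths came from GENCODE M21 (GRCm38), which held 21819 of 22104 identifiers; the other 285 carried 0.195% of reads. Of the tested chains, 5 share exonic bases with a gene on the opposite strand, whose mean counts were 0.319 to 13.0. The chains, the partner and marker lists and the naming rule were chosen with earlier results of these data known. Chains called in any comparison, and the 3 integrin and 3 laminin genes highest per kb, are given library by library, the others by their range; from each list at most 3 called genes per comparison, those with the smallest adjusted p, are named. At this depth the tested chains had 47 to 204697 reads each over all libraries, and the median SE over all genes was 0.0987 to 0.148 on the log2 scale. Some genes that the rule would name are not reported here.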

Additional observations from a re-analysis of the deposited data

How the results depend on the processing

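No paired analysis was possible because the labels carry no replicate numbers that link libraries of different groups. Over 17 alternatives, 858 of 870 results for single chains kept their direction and side of the threshold under the 6 other settings and 1562 of 1595 when 1 library was left out; called values never changed sign, and 82 values called in neither did. Without a variance trend, genes called under hypoxia went from 320 to 200 in wild-type and from 602 to 351 in the knockout, chains risen under hypoxia in the knockout from 2 to 1, and chains risen in the knockout in hypoxia from 5 to 3. DESeq2 called 1 chain risen in wild-type hypoxia and 1 fallen in knockout hypoxia, where limma called 0. The difference between hypoxia effects had 1 gene with limma, 0 with a pseudocount of 5 or with edgeR and 4 with DESeq2. Leaving out 1 library gave 161 to 319 genes called under hypoxia in wild-type (161 without wild-type normoxia library 2, 185 without library 1), 371 to 624 in the knockout, 668 to 1358 for the genotype in normoxia (668 without wild-type normoxia library 2, 778 without library 1), 914 to 1341 for the genotype in hypoxia and 1 to 3 for the difference. The knockout hypoxia count fell to 371 and 387 without knockout normoxia library 1 or 2, and to 394, 392 and 373 without knockout hypoxia library 1, 2 or 3. Chain counts under hypoxia became 0 to 1 fallen in wild-type, and 1 to 2 risen and 0 to 1 fallen in the knockout; between genotypes they became 1 to 4 risen and 6 to 9 fallen in normoxia, and 3 to 5 risen and 8 to 10 fallen in hypoxia. Leaving out a library leaves fewer samples in the fit, and only 1 in wild-type normoxia when either of its 2 is left out. For the other settings the cause was not tested. Low chains (Itga10, Itgb7, Lamc3) have few reads, which limits what their intervals can show.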
